A study of Mus musculus with 2 samples.

Results

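Prdx1, Gpx1, Sod1, Sod2, Cat, Txnrd1, Gclc, Gclm, Srxn1 and Nfe2l2 were followed across the cell classes of the mouse retina after sodium iodate. These 10 genes, of 31053 in the count files, were taken by symbol, and all 10 were found in both libraries. They encode enzymes that remove reactive oxygen species, the enzymes that make and recycle the thiols those enzymes use, and NRF2, the transcription factor that drives many antioxidant genes. Sodium iodate (NaIO3), a strong oxidising salt, is used in mice to injure the pigmented layer behind the retina, and loss of photoreceptors follows that injury.

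Superoxide dismutases turn superoxide into hydrogen peroxide, which catalase, glutathione peroxidases and peroxiredoxins then reduce to water. Glutathione peroxidases draw on glutathione and peroxiredoxins on thioredoxin, and both cycles end in NADPH. NRF2 is held low by KEAP1 in resting cells, and when it is set free it binds antioxidant response elements near genes such as Gclm, Txnrd1, Srxn1 and Prdx1.

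PBS and NaIO3 were compared, each as 1 droplet library (10x) of dissociated retina from 6 pooled mice. The NaIO3 mice received 20 mg per kg into a vein in phosphate-buffered saline (PBS), the control mice received the same volume of PBS, and retinas were taken on day 7. Both libraries are labelled CD11b-positive microglia, yet the protocol names CD11b bead selection for the NaIO3 cells alone, and 92.6% of kept PBS cells (91.9 to 93.3) were rod-like. By that protocol bead handling and NaIO3 differ together and cannot be told apart in any ratio below. Strain, sex and age are not given in the sources used here. With 1 library per condition there is no replicate check and no p-value, and all intervals below are exact 95% intervals that cover counting error only.

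Kept cells numbered 5573 with a median of 2486 UMIs (unique molecular identifiers, 1 per captured transcript) in PBS and 9308 with a median of 2939 in NaIO3. Each cell was placed in a class by the number of distinct marker genes it held, and 53 PBS and 1256 NaIO3 cells passed no gate. Classes compared held 5160 PBS and 5275 NaIO3 rod-like cells, 241 and 268 cone-like, 57 and 472 bipolar-like, 33 and 279 Müller-like, and 13 and 1613 microglia-like cells. Endothelial-like cells, 114 in NaIO3 and 2 in PBS, were used for day 7 levels alone, and 1 amacrine-like NaIO3 cell left that class without a comparison. Day 7 orders and spreads cover classes of 50 NaIO3 cells or more, so the 17 dendritic-like and 10 T- or NK-like cells, among others, are not in them. The libraries shared 24 cell barcodes, 23 of them among kept cells. Levels are UMI counts of a gene scaled to the UMIs of the class (CPM), and levels of different genes are not compared with each other. A gene was called higher or lower at 1.5 times or more with an interval that leaves out 1, among genes with at least 20 UMIs and 20 CPM in either library.

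By GENCODE M21 (GRCm38, the mm10 build) all 10 are protein-coding genes, at chr4:116685544-116700822 (Prdx1), chr9:108338903-108340343 (Gpx1), chr16:90220754-90226329 (Sod1), chr17:13006846-13040063 (Sod2), chr2:103453849-103485160 (Cat), chr10:82833951-82897712 (Txnrd1), chr9:77754535-77794485 (Gclc), chr3:122245557-122270732 (Gclm), chr2:152105516-152111376 (Srxn1) and chr2:75675513-75704641 (Nfe2l2). Cat and Nfe2l2 lie on the minus strand and the other 8 on the plus strand. Scaf4 overlaps Sod1 on the other strand, Eid3, Gm38560 and Gm47073 overlap Txnrd1, Gm6061 and Gm17494 overlap Gclm, and Gm24996 overlaps Nfe2l2. The sources used here do not give how reads in such overlaps were counted.

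The core of the antioxidant response element, TGACNNNGC with N as any base, was searched on both strands of RefSeq promoters (GRCm38.p6, from 250 bases before to 50 after each annotated start). It was found for 6 of the 9 genes with a promoter in the table, and at 6 of their 11 starts. Of all 32851 promoters of that length 12.4% hold it, and 14% of the 27025 genes in the table hold it at any start. Among the other genes of the pathway lists read below, 14 of the 81 with a promoter hold it. The matches are shown 5′ to 3′ along the gene, with the matching bases in capitals, because this letter pattern is the site through which NRF2 is known to act.
Gclm, chr3:122245398-122245456, plus strand: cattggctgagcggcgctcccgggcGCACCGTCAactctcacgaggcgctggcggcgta
Prdx1, chr4:116685441-116685499, plus strand: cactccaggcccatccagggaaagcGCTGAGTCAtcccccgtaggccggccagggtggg
Sod1, chr16:90220681-90220739, plus strand: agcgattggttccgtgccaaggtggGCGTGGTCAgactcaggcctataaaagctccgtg
Txnrd1, chr10:82859089-82859147, plus strand: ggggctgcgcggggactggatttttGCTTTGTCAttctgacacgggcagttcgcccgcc
Nfe2l2, chr2:75704870-75704913, minus strand: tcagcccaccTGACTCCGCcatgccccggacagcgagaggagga
Srxn1, chr2:152105542-152105570, plus strand: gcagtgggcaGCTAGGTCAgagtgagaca
The matches begin before the start site at 134 bases for Gclm, 133 for Prdx1, 56 for Sod1, 92 for Txnrd1 and 240 for Nfe2l2. The Srxn1 match begins at base 29 after it, and all matches but that of Nfe2l2 read TGACNNNGC on the opposite strand. Txnrd1 holds it at 1 of 3 annotated starts. No match was found in the windows of Gpx1, Sod2 and Cat, and Gclc is not in the table. A match is a letter pattern, not a measured binding site.

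In rod-like cells Gclm, Sod1, Nfe2l2 and Txnrd1 were higher after NaIO3 by 1.68 to 2.63 times, and no member was lower. These 4 are 4 of the 9 members that passed the filter on low counts, beside 28.8% of all 7136 genes tested called higher and 8.42% called lower. Cone-like cells had 5 of 9 higher, Gclm, Srxn1, Sod1, Txnrd1 and Nfe2l2, beside 25.8% of genes higher and 6.69% lower. Gclm, Sod1, Txnrd1 and Nfe2l2 were called in both kinds of photoreceptor, while the ratios of Sod2 and Gclc were at most 1.26 in each.

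Bipolar-like cells had 1 of 8 members higher, Sod1, beside 15.9% of genes higher and 14.7% lower. Müller-like cells, the glia that span the retina, had Srxn1, Gpx1 and Sod1 higher and Gclm lower among 10, beside 12% of genes higher and 15.6% lower. Their median depth was 6294 UMIs in PBS and 16615 in NaIO3, and the part of this gap in their ratios was not tested. At 5% mitochondrial UMIs, where 14 PBS cells remained, Srxn1 and Gpx1 (1.70) were no longer called in Müller-like cells. Srxn1 had no PBS UMI left there, so its ratio is known only as at least 1.23, with PBS set at 3 counts. Prdx1 (0.64) was lower at that limit, and Sod2 (2.56) and Txnrd1 (2.37) were higher. Microglia-like cells, the resident macrophages, had Sod1, Prdx1, Gpx1 and Nfe2l2 higher among 9, beside 4.36% of genes higher and 10.9% lower. Sod1 was the member called higher in all 5 classes under the reported settings.

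The median log2 ratio of the tested members was 0.53 in rod-like cells and 0.63 in cone-like cells, where that of all tested genes was 0.28 and 0.26. It was 0.23 in bipolar-like cells and 0.35 in Müller-like cells, against 0.05 and -0.03 over all genes. In microglia-like cells it was 0.78 over the 8 members with a UMI in both libraries. Over the 7207 tested genes there with a ratio, or a bound at 3 counts where 1 library had 0, it was -0.55. TMM scaling, which uses a trimmed mean of gene ratios, moved the all-gene median to -0.09 in rod-like and -0.03 in cone-like cells. The median moved to 0.12 in bipolar-like, 0.15 in Müller-like and 0.36 in microglia-like cells, so this scaling did not centre the tested genes there. Under it 36.4% of calls were higher in rod-like cells where 77.4% were before, 45.1% in cone-like cells (79.4%), 58.2% in Müller-like cells (43.6%) and 68.4% in microglia-like cells (28.6%). Sod1 and Gclm stayed called in rod-like cells under TMM, Gclm and Srxn1 in cone-like cells, and all 4 microglia-like calls stayed. Mitochondrial UMIs made up 7.86% of rod-like UMIs in PBS and 2.62% in NaIO3, and the 12 rod markers 8.93% and 4.90%. Of 5 erythrocyte genes the sum in rod-like cells was 3.98 CPM in PBS and 414 in NaIO3, against 1.75 and 3.14 in cone-like cells. The part of these differences in the ratios was not tested beyond the splits and totals given below.

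**Figure D1:**
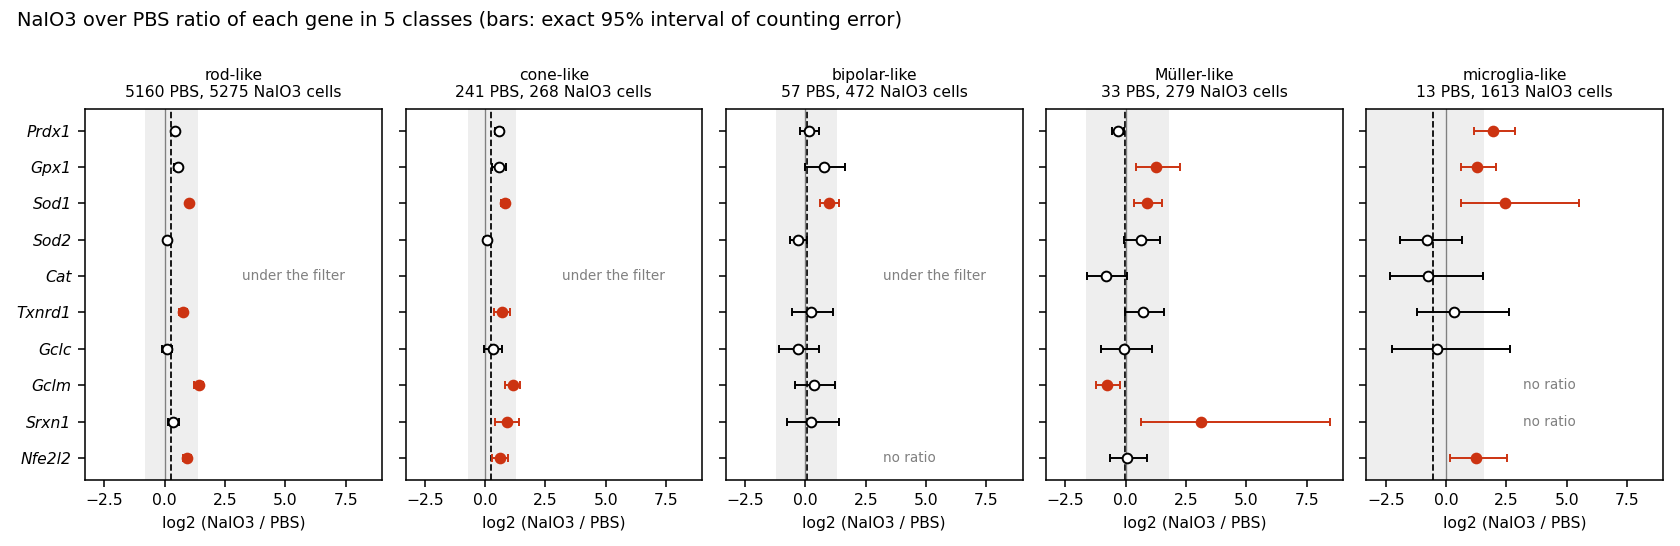
NaIO3 over PBS ratio of each gene on a log2 axis, in 5 cell classes, with bars for the exact 95% interval of counting error. Filled red points were called, the dashed line is the median of all tested genes and the grey band holds their middle 90 percent; Sod1 is red in all 5 panels and Gclm lies right of 0 in rod-like and cone-like cells and left of it in Müller-like cells.

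Nfe2l2 encodes NRF2 itself. Its level was 26.8 CPM in PBS and 50.7 in NaIO3 rod-like cells, a ratio of 1.89 (1.69 to 2.13), and 28.9 and 44.8 in cone-like cells, a ratio of 1.55 (1.23 to 1.95). The cone-like call was lost in 7 of 14 alternatives, with ratios down to 1.082 at 5% mitochondrial UMIs, and the rod-like call under TMM scaling, at 1.49. In microglia-like cells it went from 159 CPM, 7 UMIs in 13 cells, to 372 CPM, a ratio of 2.33 (1.13 to 5.80). Müller-like cells held 78.6 and 82.6 CPM, a ratio of 1.05 (0.64 to 1.86). Bipolar-like cells had 0 UMIs in PBS, which allows up to 6.52 CPM at 3 counts, and 20 UMIs, or 6.10 CPM, in NaIO3.

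On day 7 Nfe2l2 had the widest spread between classes of the 10 genes. Microglia-like cells stood highest, 61.0 times above bipolar-like cells, followed by endothelial-like cells at 171 CPM, Müller-like, rod-like and cone-like cells, and only rod-like and cone-like cells had overlapping intervals. Thinned to 1000 UMIs, with shallower cells left out, 27.5% of 1257 microglia-like cells (25.1 to 30.1, of 1613 in all) and 0.64% of 468 bipolar-like cells (0.13 to 1.86, of 472) held an Nfe2l2 UMI. Without thinning the shares were 53.7% and 3.81%, at median depths of 2261 and 6066 UMIs.

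Sod1, the copper and zinc dismutase of the cytosol, was close to 2 times higher in 4 classes under the reported settings. It went from 85.8 to 171 CPM in rod-like cells, a ratio of 1.99 (1.87 to 2.12), and from 93.3 to 166 CPM in cone-like cells, a ratio of 1.78 (1.57 to 2.01). TMM scaling took these ratios to 1.57 and 1.47, and the cone-like call was lost. Bipolar-like cells went from 126 to 251 CPM, a ratio of 1.99 (1.53 to 2.65), and Müller-like cells from 138 to 256 CPM, a ratio of 1.86 (1.28 to 2.81). The microglia-like ratio of 5.50 (1.52 to 45.5) rests on 2 PBS UMIs, with 45.6 CPM against 251 CPM. Among classes of 50 cells or more on day 7, levels ran from 166 CPM in cone-like to 299 in endothelial-like cells. Neighbours from endothelial-like through Müller-like and bipolar-like to microglia-like cells overlapped in their intervals. The 17 dendritic-like NaIO3 cells, too few for that order, held 519 CPM (429 to 622).

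Sod2, the manganese dismutase of mitochondria, was not called in any class under the reported settings. Its level was 196 and 206 CPM in rod-like cells, a ratio of 1.05 (1.001 to 1.10) that falls to 0.83 under TMM scaling, and 192 and 202 CPM in cone-like cells, a ratio of 1.055 that falls to 0.87. Its Müller-like ratio of 1.54 (0.95 to 2.66) was called higher in 5 of 14 alternatives, among them TMM scaling at 1.72. Its microglia-like ratio of 0.58 (0.27 to 1.59) was called lower in 2 of 15, among them the mean of per-cell CPM, which has no interval. Sod2 was the one member at its highest day 7 level in photoreceptors, 2.96 times above endothelial-like cells, and rod-like and cone-like cells overlapped. Counted against each other, which needs no scaling, there were 0.44 Sod1 UMIs per Sod2 UMI in PBS and 0.83 in NaIO3 rod-like cells, 1.89 times more (1.75 to 2.05). In cone-like cells the same count went from 0.49 to 0.82, and in bipolar-like cells from 0.77 to 1.89. In Müller-like cells it was 1.65 and 1.99, a ratio of 1.21 (0.62 to 2.31) whose interval holds 1.

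Of the enzymes that remove peroxide, Cat (catalase, an enzyme of peroxisomes) was below the filter in rod-like, cone-like and bipolar-like cells, where no level passed 10.1 CPM. In rod-like cells its level was 5.97 and 9.23 CPM from 99 and 156 UMIs. Müller-like cells held 68.8 and 38.8 CPM and microglia-like cells 68.3 and 40.4 CPM, from 14 and 3 PBS UMIs, and both ratio intervals held 1. On day 7 endothelial-like, microglia-like and Müller-like cells (46.0, 40.4 and 38.8 CPM) overlapped each other and stood above the neurons.

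Gpx1, the glutathione peroxidase of the cytosol, was 33.7 and 48.7 CPM in rod-like cells, a ratio of 1.45 (1.30 to 1.61) just under the threshold, and 41.1 and 61.1 CPM in cone-like cells, a ratio of 1.49 (1.22 to 1.81). In Müller-like cells it went from 54.0 CPM, 11 UMIs, to 129 CPM, a ratio of 2.39 (1.33 to 4.82). Microglia-like cells went from 387 CPM, 17 UMIs, to 945 CPM, a ratio of 2.44 (1.52 to 4.19). The day 7 order ran from microglia-like cells through endothelial-like cells at 375 CPM and Müller-like cells to the neurons, with a factor of 19.4 from top to bottom.

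Prdx1, a peroxiredoxin of the cytosol and nucleus, was higher by 3.82 times (2.23 to 7.17) in microglia-like cells, from 296 CPM, 13 UMIs, to 1131 CPM. Rod-like cells held 112 and 149 CPM, a ratio of 1.34 (1.26 to 1.42) that shrinks to 1.05 under TMM scaling. Cone-like cells held 100.4 and 150.2 CPM, a ratio of 1.495 (1.32 to 1.69) that lies just under the threshold. Müller-like cells were below PBS, at 757 and 602 CPM, a ratio of 0.80 (0.68 to 0.94) that does not reach 1.5 times. On day 7 microglia-like cells stood 1.88 times above Müller-like cells and 7.57 times above rod-like cells, and the 3 neuron classes lay between 149 and 151 CPM.

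The shares of cells with a UMI were also larger in microglia-like than in rod-like cells for both genes. Thinned to 1000 UMIs, 66.6% of the 1257 microglia-like cells (63.9 to 69.2) held a Prdx1 UMI against 13.5% of 4704 rod-like cells (12.6 to 14.5, of 5275 in all), and 56.7% against 4.70% held a Gpx1 UMI. Without thinning the shares were 86.6% and 32.8% for Prdx1 and 77.3% and 13.1% for Gpx1, at median depths of 2261 and 2397 UMIs. In all, 7 of the 10 members were found in a larger share of thinned microglia-like than rod-like cells. Gclc is among the 7 at 2.70% (1.88 to 3.76) against 2.57% (2.14 to 3.07), with overlapping intervals. The like count over all genes was not made, so the 7 cannot be read as a trait of the members.

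**Figure D2:**
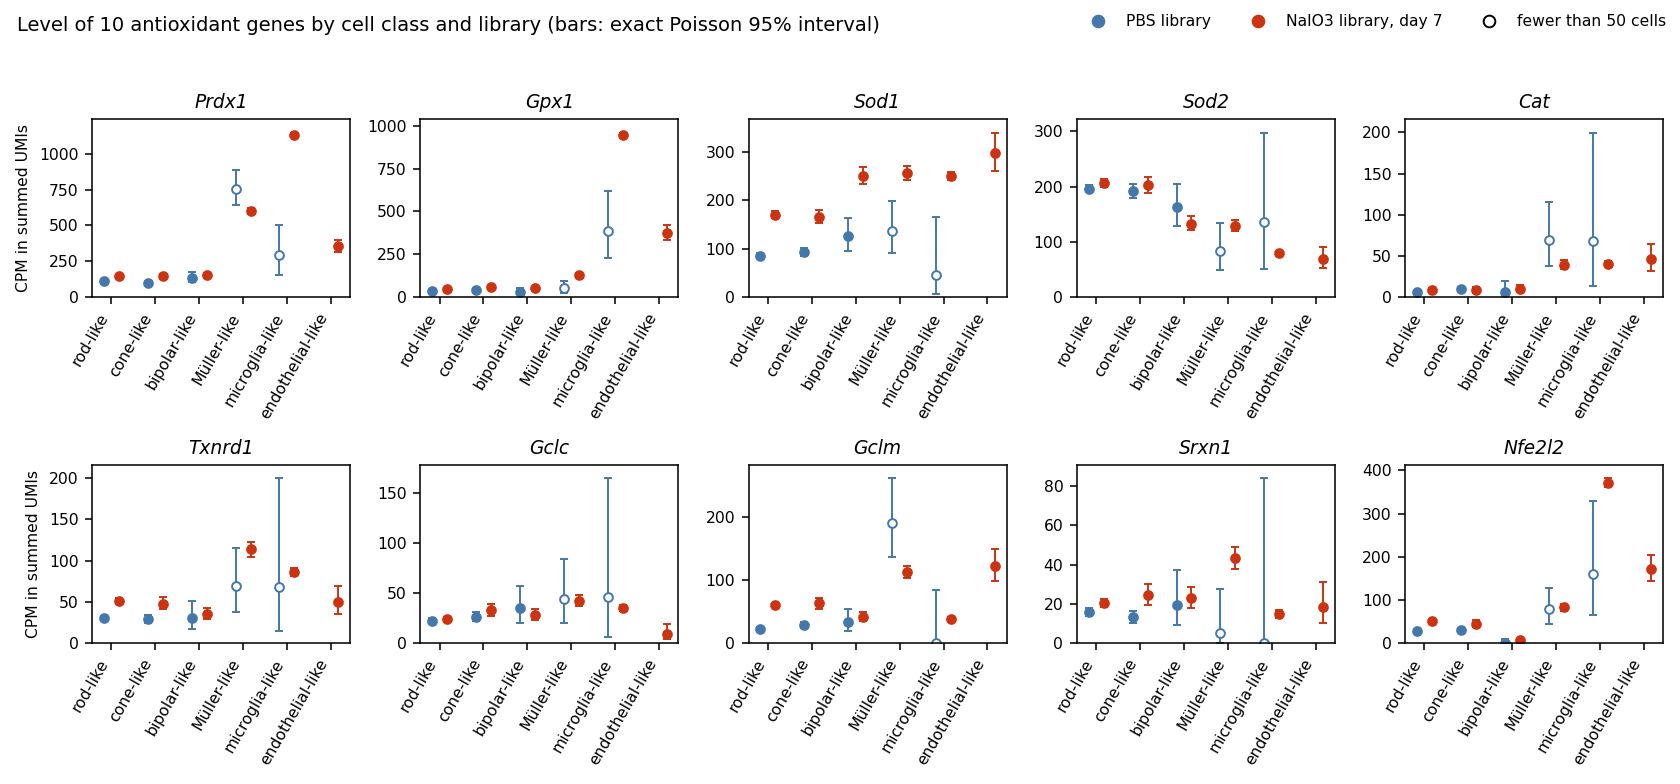
Level of each gene in CPM (linear axis from 0) by cell class, blue for the PBS and red for the NaIO3 library, with exact Poisson 95% intervals and open circles for classes under 50 cells. Prdx1, Gpx1 and Nfe2l2 are highest in NaIO3 microglia-like cells, Sod2 in rod-like and cone-like cells, and the PBS microglia-like intervals are wide.

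Glutathione is made in a pair of steps, the first of them by glutamate-cysteine ligase, whose catalytic subunit is Gclc and whose modifier subunit, which raises the activity of the catalytic one, is Gclm. Gclm was the member furthest above PBS in rod-like cells, 22.8 and 60.1 CPM from 378 and 1016 UMIs, a ratio of 2.63 (2.34 to 2.97) that placed it above 95.6% of tested genes. In cone-like cells it was 28.3 and 62.8 CPM, a ratio of 2.22 (1.79 to 2.75). Gclc did not follow, with 22.3 and 24.0 CPM in rod-like cells, a ratio of 1.07 (0.93 to 1.24) that falls to 0.85 under TMM scaling. The rod-like count of Gclm UMIs per Gclc UMI went from 1.02 to 2.51, 2.46 times more (2.03 to 2.96), and the cone-like count from 1.10 to 1.93, 1.76 times more (1.25 to 2.47).

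Müller-like cells had the opposite direction for Gclm. Their level was 192 CPM in PBS, 39 UMIs in 33 cells, and 113 CPM in NaIO3, 589 UMIs in 279 cells, so that it was 1.70 times lower (ratio 0.59, 0.42 to 0.84). The mean over cells gave a ratio of 0.99, and keeping cells rich in rod markers, lifting the mitochondrial limit or lowering it to 5% also ended the call. The 10 Müller glia markers themselves summed to 21794 CPM in PBS and 10137 in NaIO3 Müller-like cells, rod markers to 0.70% and 1.22% of UMIs and erythrocyte genes to 0 and 264 CPM, and their part in the Müller-like results was not tested. In PBS the Müller-like level of 192 CPM stood beside 22.8 in rod-like cells, and on day 7 endothelial-like cells at 122 CPM and Müller-like cells at 113 were highest and overlapped. Microglia-like cells had 0 Gclm UMIs in PBS, which allows up to 68.3 CPM, and 38.0 CPM in NaIO3.

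Txnrd1 encodes the thioredoxin reductase of the cytosol, a selenoprotein that returns thioredoxin to its reduced form. It was 30.3 and 50.9 CPM in rod-like cells, a ratio of 1.68 (1.504 to 1.88), and 29.3 and 47.7 CPM in cone-like cells, a ratio of 1.63 (1.30 to 2.04), and TMM scaling took both under the threshold, to 1.32 and 1.35. Its Müller-like ratio of 1.65 (0.98 to 3.04), from 14 PBS UMIs, was not called. It stayed so in 8 of 14 alternatives, and TMM scaling was among those that called it higher, at 1.85. The highest day 7 level was in Müller-like cells at 114 CPM, then 85.9 in microglia-like cells, and the remaining 4 classes overlapped their neighbours from 50.9 down to 35.7 CPM.

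Srxn1, sulfiredoxin, repairs peroxiredoxins that have been over-oxidised. Cone-like cells had 12.99 and 24.3 CPM, a ratio of 1.87 (1.34 to 2.61), while rod-like cells had 15.8 and 20.2 CPM, a ratio of 1.28 (1.09 to 1.51). In Müller-like cells it was seen as 1 UMI in PBS, 4.91 CPM, and 226 UMIs in NaIO3, 43.2 CPM, a ratio of 8.80 with an interval from 1.56 to 349. Müller-like cells were also its highest day 7 class, 1.78 times above cone-like cells. Microglia-like cells, the highest for Prdx1, were the lowest for Srxn1 at 14.5 CPM, overlapping endothelial-like cells.

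The rod-like comparison was large enough to be split by depth and by mitochondrial share, both of which differ between the libraries. Gclm ran from 20.5 to 25.2 CPM over 4 depth ranges in PBS and from 56.1 to 64.1 CPM in NaIO3, and Sod1 from 47.9 to 105 CPM and from 156 to 175 CPM, so that neither gene's ranges overlapped. Both were called higher in each of 4 depth ranges and in each of 3 ranges of mitochondrial share, with ratios of 2.22 to 2.93 and 1.66 to 3.26 by depth and of 2.02 to 3.16 and 1.91 to 3.005 by mitochondrial share. Nfe2l2 was called in all 4 depth ranges but not in cells under 2% mitochondrial UMIs, where it was 39.4 and 51.3 CPM, a ratio of 1.30. Txnrd1 was not called in cells under 1500 UMIs, at 1.15 times, nor in those under 2% or from 2 to 5% mitochondrial UMIs. A limit of 5% mitochondrial UMIs left 1826 PBS and 4559 NaIO3 rod-like cells, in which Gclm (2.40), Sod1 (2.90), Prdx1 (1.52) and Gpx1 (1.52) were called.

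**Figure D3:**
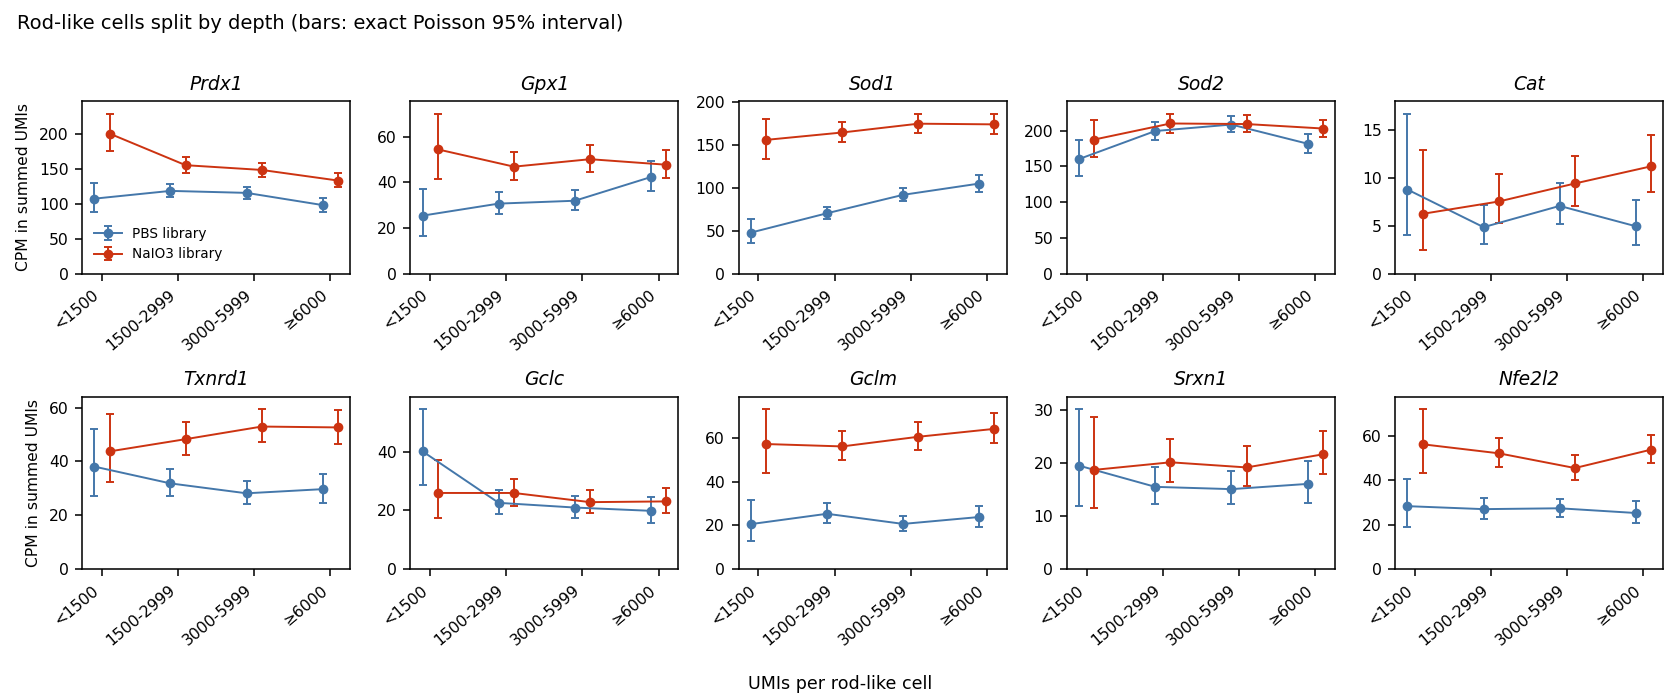
Level of each gene in CPM (linear axis from 0) in rod-like cells split by UMIs per cell, blue for PBS and red for NaIO3, with exact Poisson 95% intervals. Gclm, Sod1 and Nfe2l2 stay apart between libraries at every depth, and Sod2 overlaps between libraries in all 4 ranges.

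Within the NaIO3 rod-like cells Gclm and Sod1 were compared between states. Cells with 0 genes of a list for stressed rods held 50.7 CPM of Gclm (41.3 to 61.6), those with 2 or more such genes 64.5 (59.9 to 69.4), which overlap, and those with 2 or more interferon-response genes 75.7 (64.7 to 87.9, against 51.5 to 60.3 in cells with none), while Sod1 was 163, 171 and 181 CPM with overlapping intervals. Median depth was 3744 UMIs in the interferon cells and 2250 in cells with no such gene. Cells with 2 or more stressed rod genes numbered 2547 of 5275, at a median depth of 3307 UMIs against 1544 in cells with none. With the 0-gene NaIO3 cells alone set against all PBS rod-like cells, Gclm was still 2.22 times, Sod1 1.89, Nfe2l2 1.80 and Txnrd1 1.67 times higher. Prdx1 was called there too, at 1.502 times (1.33 to 1.69). The PBS cells were not split by this list and had a median depth of 2373.5 UMIs.

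Free RNA from other cells was estimated through the 18 microglia markers, which summed to 14.6 CPM in PBS and 104 CPM in NaIO3 rod-like cells. The latter is 0.41% of their level in NaIO3 microglia-like cells. Cells with 4 or more of these markers could not be rod-like, and the other gates limit these markers too. The shares are thus capped by the gates and may be too low. The same share of the microglia-like level would be 4.64 CPM of Prdx1, 3.87 of Gpx1, 1.52 of Nfe2l2, 1.03 of Sod1 and 0.16 of Gclm. Free RNA from other classes was not measured in this way, and its part in the ratios was not tested. For Müller-like cells the share was 1.16%, or 11.0 CPM of Gpx1. In bipolar-like cells it was 0.35%, or 1.32 CPM of the 6.10 CPM of Nfe2l2.

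Among microglia-like cells of the NaIO3 library depth spanned a wide range. Prdx1 was 1752 CPM in 601 cells under 1500 UMIs and 1058 CPM in 565 cells of 6000 UMIs or more, and Sod1 337 and 244 CPM, whereas Nfe2l2 went from 253 to 382 CPM and Gpx1 from 879 to 951 CPM. States were therefore set side by side only among cells of 6000 UMIs or more. There Prdx1 was 1099 CPM in 319 cells with 3 or more proliferation genes and 816 CPM in 96 cells with none, Gclm 40.3 and 17.7 CPM, and Nfe2l2 352 and 463 CPM, without overlap, at median depths of 26110 and 11277 UMIs. Cells of that depth with 2 or more homeostatic genes and those with none held 388 and 372 CPM of Nfe2l2 and 961 and 906 CPM of Gpx1, with overlapping intervals.

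Prdx1 was higher than PBS in the microglia-like cells under each of 15 alternatives, from 2.32 to 6.41 times, and Gpx1 from 2.20 to 3.897 times. Nfe2l2 lost its call in 3 of the 15, at 5% mitochondrial UMIs, at a minimum of 1500 UMIs and with Leiden clusters. The PBS side is 13 cells with 43901 UMIs, in which 1 UMI is worth 22.8 CPM. Their rod markers summed to 1.23% of UMIs against 0.12% in NaIO3. Leaving rod markers out of the total kept all 4 calls, but so small a share can hardly move a ratio, and other rod RNA stays in. The part of rod RNA in these ratios was thus not tested. The 18 microglia markers summed to 46309 CPM in PBS and 25308 in NaIO3, and 10 macrophage or monocyte markers to 0 CPM, all 10 at 0, and 1089 CPM, none at 0. Whether such cells had a part in the microglia-like ratios was not tested.

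The other genes of the same pathways were read from lists. Of all tested genes, 28.8% were called higher and 8.42% lower in rod-like cells, and 25.8% and 6.69% in cone-like cells. The same shares were 15.9% and 14.7% in bipolar-like, 12% and 15.6% in Müller-like, and 4.36% and 10.9% in microglia-like cells. Of the peroxiredoxin and thioredoxin list, 1 of 9 tested genes other than members was higher in rod-like cells and 2 were lower. Sesn3, a sestrin, was 1.79 times higher, and Txn2 and Prdx5, the mitochondrial thioredoxin and a peroxiredoxin found there, were 1.80 and 1.55 times lower. The list median was -0.34 (log2), against 0.28 over all tested genes. Sesn3 was also the gene of this list called higher in cone-like (1.78 times) and bipolar-like cells (1.98 times), where Txnrd2, Prdx4 and Prdx6 were 5.15, 2.06 and 2.02 times lower. In Müller-like cells Txnip was 2.69 times higher, and Prdx4, Txn2 and Prdx3 were 2.33, 2.12 and 1.73 times lower. Microglia-like cells had Txn1, the cytosolic thioredoxin that Txnrd1 reduces, 6.12 times higher (2.39 to 22.5) from 4 PBS UMIs, and Txnip, which binds thioredoxin, 2.05 times lower.

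Of 12 tested glutathione genes 2 were higher and 2 lower in rod-like cells. Glo1, which clears methylglyoxal with glutathione, went from 232 to 731 CPM, 3.15 times higher (3.04 to 3.26), and Gstm5, a glutathione transferase, from 7.24 to 27.0 CPM. Gstp1, another glutathione transferase, went from 140 to 37.6 CPM, 3.73 times lower, and Hagh, the partner of Glo1, was 1.68 times lower. Cone-like cells had Gstm5 and Glo1 4.14 and 2.10 times higher and Gstp1 and Glrx3 3.98 and 1.53 times lower. Gstm5 was 2.18 times higher in bipolar-like cells too, beside Gstp1, Hagh and Glrx5 at 2.99, 2.54 and 2.07 times lower, but 3.40 times lower in Müller-like cells, with Gpx8 and Gsta4 at 2.16 and 1.56 times lower. None of 13 was called in microglia-like cells. Gpx4, which reduces lipid peroxides in membranes, lay at 1671 and 1644 CPM in rod-like cells, a ratio of 0.98.

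Among the known partners of NRF2, Nfe2l1, a related transcription factor, was 2.54 times higher in rod-like (2.35 to 2.75), 2.06 in cone-like, 1.54 in bipolar-like and 1.80 in Müller-like cells. Cul3, the scaffold of the ligase that marks NRF2 for breakdown, was 1.58 times higher in rod-like cells and was called higher in bipolar-like and Müller-like cells too. Keap1 was not called in rod-like cells, at 39.4 and 51.5 CPM. Sqstm1, an autophagy receptor that binds KEAP1, was 2.41 times higher in cone-like, 1.80 in bipolar-like and 1.90 in Müller-like cells. Park7 was 1.68 times lower in Müller-like and 1.91 times lower in bipolar-like cells, where Mafg was 1.84 times lower. None of the 8 tested genes of this list was called in microglia-like cells.

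Other genes known as NRF2 targets were called in a mixed pattern. Mt1 and Mt2, metallothioneins that bind zinc and copper, went from 12.4 to 161 and from 2.29 to 39.7 CPM in rod-like cells and from 1125 to 8203 and from 157 to 2487 CPM in Müller-like cells, and they are induced by metals and glucocorticoids as well. Abcc1, a transporter of glutathione conjugates, was 2.40 times higher in rod-like and 2.54 times in cone-like cells, and Fth1, the ferritin heavy chain, was 1.503 times lower in rod-like cells. Of 12 tested in Müller-like cells 6 were higher, among them Hmox1, heme oxygenase, at 9.38 times from 1 PBS UMI (1.67 to 372), and Cbr1 was 1.92 times lower. In bipolar-like cells 5 of 9 were lower and none higher, led by Blvrb, Blvra and Fth1. Microglia-like cells had Mt1 (3.92 times), Ftl1 (2.30) and Fth1 (1.66) higher of 9. Nqo1, a standard reporter of NRF2, had 5 and 7 UMIs in rod-like cells and 0 in cone-like cells of either library, and Hmox1 had 62 and 84 UMIs in rod-like cells, both under the filter.

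The NADPH list had Idh1 1.64 times higher in rod-like, Me1 5.49 times higher (1.87 to 26.7) and Idh2 1.87 times lower in Müller-like, Tkt and Pgls 1.74 and 1.58 times lower in bipolar-like, and Pgd 4.38 times higher (1.21 to 36.2) in microglia-like cells. Nnt, the transhydrogenase that makes NADPH in mitochondria, had 0 UMIs in all 5 classes of both libraries. Among selenoprotein genes, which bear on Txnrd1 and Gpx1 because both proteins carry selenocysteine, 4 of 9 were lower in rod-like cells and 1 was higher. Sephs2, which makes the selenium donor, was 2.42 times lower in rod-like, 1.91 in cone-like, 2.18 in bipolar-like and 2.46 in Müller-like cells. Selenof was 1.71, 1.60, 1.70 and 2.999 times lower in the same classes, and Sephs1 was the one higher in rod-like cells, by 1.65 times. Microglia-like cells had Selenow 3.09 times higher and Selenop 2.22 times lower.

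Genes of the phagocyte NADPH oxidase, which makes superoxide, passed the filter as 6 genes in microglia-like cells, 1 in Müller-like cells and 0 in the neurons. Cybb, its catalytic subunit, had 0 UMIs in PBS and 594 CPM in NaIO3 microglia-like cells, at least 8.69-fold higher at 3 counts over the group, and Cyba was 1.68 times higher. Cybb lay at 2.07 CPM in NaIO3 rod-like cells. The mitochondrial transcripts mt-Atp6, mt-Co2 and mt-Cytb, read as signs of RNA quality, were 4.06, 3.55 and 3.34 times lower in rod-like cells and mt-Atp6 was lower in each of the 5 classes. Malat1, a nuclear RNA of the same list, was 2.35 times higher in cone-like and 1.86 times lower in microglia-like cells. Their part in the results was not tested beyond the split by mitochondrial share. Counting each gene once per class in which it was called, and leaving out Cybb for its 0 PBS UMIs, 116 calls were made over all lists. Under TMM scaling 16 of these ratios were less than 1.5 times from PBS, 7 of them among the 14 microglia-like calls. The microglia-like mt-Nd1 ratio passed to the other side of 1 under that scaling.

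**Figure D4:**
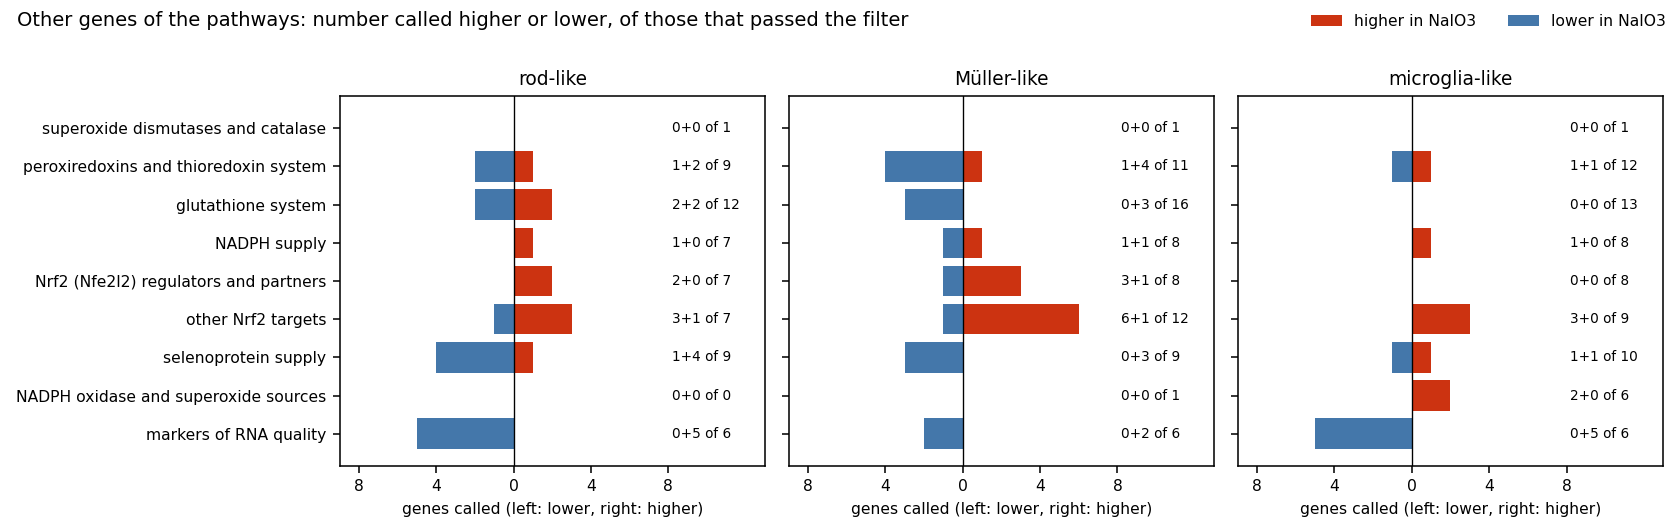
Number of genes other than the 10 members called higher (right, red) or lower (left, blue) in each pathway list, in rod-like, Müller-like and microglia-like cells, with the number tested at the right edge. Calls go both ways in 4 lists in rod-like and 4 in Müller-like cells, and the NADPH oxidase list has 6 tested genes in microglia-like cells and 0 in rod-like cells.

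Genes with and without the promoter match were set side by side. Of the tested genes in the promoter table, 28% of 986 with the TGACNNNGC match and 28.6% of 4677 without it were called higher in rod-like cells, with median log2 ratios of 0.26 and 0.28. In microglia-like cells the shares were 6.53% of 1010 and 4.5% of 4710, with medians of -0.42 and -0.56, and in Müller-like cells 12.2% and 11.8%.

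Genes with the most similar profile over 9 points (6 NaIO3 and 3 PBS classes of 50 cells or more) were Nfkbiz, Trim30d and Fblim1 for Prdx1, Ucp2, Mx1 and Rps29 for Gpx1, and Diaph2, Rpl22 and Arhgap17 for Nfe2l2, with Pearson r between 0.97 and 0.99 on log2(CPM + 10). The nearest were Ap2b1 for Sod1 (0.96), 1110051M20Rik for Sod2 (0.99), Trim12a for Cat (0.99), Lamp2 for Txnrd1 (0.97), Dip2b for Gclm (0.98) and Tmem14a for Srxn1 (0.96). The highest for Gclc was G6pdx at 0.91. The points share libraries and depth, so these values describe the 9 points alone. Among the members themselves Gpx1 and Prdx1 had an r of 0.91 and Gpx1 and Sod2 of -0.89.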

How the data were processed

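The data are a PBS library and a NaIO3 library of mouse retinal cells (10x), with the retinas of 6 mice pooled in either. The deposited matrices hold UMI counts per gene and barcode, made by the authors with Cell Ranger 3.0.2 per the file headers and with the mm10 build per the submitters' processing notes. The annotation and read settings are not given in the sources used here.

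Cells were kept with at least 500 UMIs, 300 genes and at most 15% mitochondrial UMIs. Doublets were called with scanpy 1.11.5 (scrublet, expected rate 6%): 133 of 9441 NaIO3 cells (1.41%) were removed, and 0 of 5573 PBS cells were marked, too few for a working caller, so doublets were removed from the NaIO3 library alone. Classes were set by minimum numbers of distinct markers, and non-photoreceptor cells with rod markers above 0.5 of the rod-like median share were left out, 221 NaIO3 Müller-like cells and 70 microglia-like cells among them. Counts were summed per class and library. Ratios have exact conditional binomial (Clopper-Pearson) intervals, CPM exact Poisson intervals and shares exact binomial intervals, at 95%. A count of 0 allows up to 3 counts. TMM used edgeR 4.0.16 (R 4.3.3). Positions are from GENCODE M21 and promoters from RefSeq.

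The members and the gene lists were chosen with earlier results of these data known. Named genes are the 10 members, and of each pathway list up to 3 highest and 3 lowest ratios among the called genes of a class. Other genes named were chosen after their values were seen. Alternatives varied the scaling, the class total, the cell filters, the doublet step, the class rule and the low-count filter.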

Additional observations from a re-analysis of the deposited data

Results flagged for a closer look

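Prdx1 had intervals on either side of 1 in different classes: its NaIO3 over PBS ratio was 1.34 in rod-like, 1.495 in cone-like and 3.82 in microglia-like cells and 0.80 in Müller-like cells. It was called in microglia-like cells alone, and under TMM scaling its ratio was 1.05 in rod-like and 0.89 in Müller-like cells. Gclm also had intervals on either side of 1, with ratios of 2.63 in rod-like and 2.22 in cone-like cells and 0.59 in Müller-like cells. With 1 library per condition the difference between classes was not tested.

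Cells that passed no gate entered no comparison. The 10 members summed to 1584 CPM in the 1256 such NaIO3 cells, at a median depth of 16017 UMIs, and to 709 CPM in the 53 such PBS cells, at 6779 UMIs.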

How the results depend on the processing

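Recomputed counts of members (by class, in the day 7 order and in the shares of cells) stayed within 1.5 times of the reported count in 163 cases and did not in 21. Members higher numbered 2 under TMM scaling in rod-like cells, and in cone-like cells 2 under TMM, 2 under median-of-ratios scaling, 3 with mitochondrial genes and rod markers both left out of the total and 1 at 5% mitochondrial UMIs, where 12 PBS cells remained. In bipolar-like cells they numbered 2 under TMM and median-of-ratios scaling, with doublets kept, with no mitochondrial limit, by the mean of per-cell CPM, with Leiden clusters and with cells rich in rod markers kept, and 0 at 5% mitochondrial UMIs, where 2 PBS cells remained. In Müller-like cells they numbered 5 under TMM, median-of-ratios scaling and no mitochondrial limit. Members lower in Müller-like cells numbered 0 with no mitochondrial limit, 3 with Leiden clusters and 0 with cells rich in rod markers kept, and in microglia-like cells 1 under mean per-cell CPM and 1 with cells rich in rod markers kept. The totals without mitochondrial genes and rod markers and the cells rich in rod markers were added after seeing the data. The cause was not tested where none is given. The 3 members highest on day 7 in microglia-like cells, 3 in Müller-like, 3 in endothelial-like and 1 in rod-like cells were the same genes under all 6 alternatives (Leiden clusters, totals without mitochondrial genes or without rod markers, 1 more marker, a minimum of 1500 UMIs and 800 genes, cells rich in rod markers kept), but by the mean of per-cell CPM Gclm was highest in Müller-like cells (123 CPM, 113 in endothelial-like). No called member changed direction. Amacrine-like alternatives could not be run, with 1 NaIO3 cell. No paired analysis was possible because each condition is 1 library. Depth limits the PBS side of the microglia-like, Müller-like and bipolar-like comparisons, with 13, 33 and 57 cells.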
